A study of Homo sapiens with 6 samples.

Results

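The G2/M and mitotic spindle genes are 50 genes that cells use to enter mitosis, build the spindle, attach chromosomes to it and divide. They were found by gene symbol in the deposited gene table, where they are 50 of 16798 genes. No cut on a measured value selected them, but the list was chosen with earlier results of these data known. All 50 were among the 12368 genes that passed the filter on low counts, with at least 328 counts in every sample. RNA-seq had been made from COV434, an immortalized human cell line labelled as granulosa cells, the cells that surround the oocyte in the ovarian follicle. The comparison was between 3 control samples, whose genotype field reads WT, and 3 treated samples, exposed to 4HC at 15 µM over 24 h, whose genotype field reads CTX and whose treatment field reads CTX-Induced. 4HC is 4-hydroxycyclophosphamide, the active metabolite of the alkylating drug cyclophosphamide (CTX), and the study asked how granulosa cells respond to it in ovarian insufficiency. The labels name the same line and the same culture medium for both groups, do not say whether the samples were separate cultures, and give no batch or date, so p-values measure only the spread between these samples, which may be technical.

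Mitotic genes are transcribed in a wave. Proteins needed from late S phase and G2 onward, such as cyclin A2, CDK1 and topoisomerase IIα, are made first, and proteins of mitosis itself, such as cyclin B1, CDC20 and AURKA, are made later. The wave is driven through the MuvB core with B-MYB (MYBL2) and FOXM1, which act at the CHR element and the CCAAT box of the promoters, and it is turned down by the p53, p21 and DREAM pathway after DNA damage. Dividing granulosa cells use the same machinery while the follicle grows.

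Each sample held between 16133786 and 16702316 expected counts, and on the first principal component, with 53.4% of the variance, the 3 controls lay on one side and the 3 4HC samples on the other. Replicates of a group differed from each other by more than counting noise (chi-square per gene, 1.7 to 2.46). Of 10 granulosa markers, 2 passed the filter: AMH had 5.19 ± 1.37 CPM in control and 5.27 ± 1.04 CPM in 4HC (SD, n = 3), and INHA had 0.797 ± 0.348 CPM and 0.611 ± 0.0676 CPM. FOXL2, FSHR, CYP19A1, STAR, NR5A1, GATA4 and INHBA did not pass the filter, with 0 to 15 counts in any sample, so most defining markers of the labelled cell type were at or near 0. No row was found under the symbol AMHR2. Of 12 markers of other cell types, 4 passed the filter and none was called. MKI67, which marks cycling cells, had 310.0 ± 5.67 CPM in control and 321 ± 8.7 CPM after 4HC, a log2 fold change of 0.05 (SE 0.033, edgeR adjusted p = 0.227).

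The mitotic genes moved in both directions after 4HC, by small amounts. Of the 50 members, 21 rose (42%) and 14 fell (28%) at an adjusted p under 0.05 in edgeR's quasi-likelihood test, and 15 were not called, while among all tested genes 19.2% rose and 17.1% fell, 36.4% in all. Among the genes with a mean of at least 20 library-scaled counts (CPM, per 1000000 counts), the range in which members lie, 20.8% rose and 23.2% fell, 44.0% in all. The median log2 fold change of the members was 0.03, beside 0.00 over all tested genes, with a range of -0.66 to 0.90. The median fold was 1.19 among the members that rose and 0.844 among those that fell, and only SPC24 (1.87) rose by over 1.5-fold and only CDC20 (0.634) fell by as much. None of the 50 reached a fold of at least 2 with an unadjusted p under 0.05, the rule of the study, which 1.15% of the tested genes met. In 21 members all 3 4HC samples were above all 3 controls and in 16 all 3 were below, against 23.4% and 21.9% of the tested genes. These are bulk samples, in which fewer cells in a phase of the cycle and less RNA per cell cannot be told apart.

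**Figure D1:**
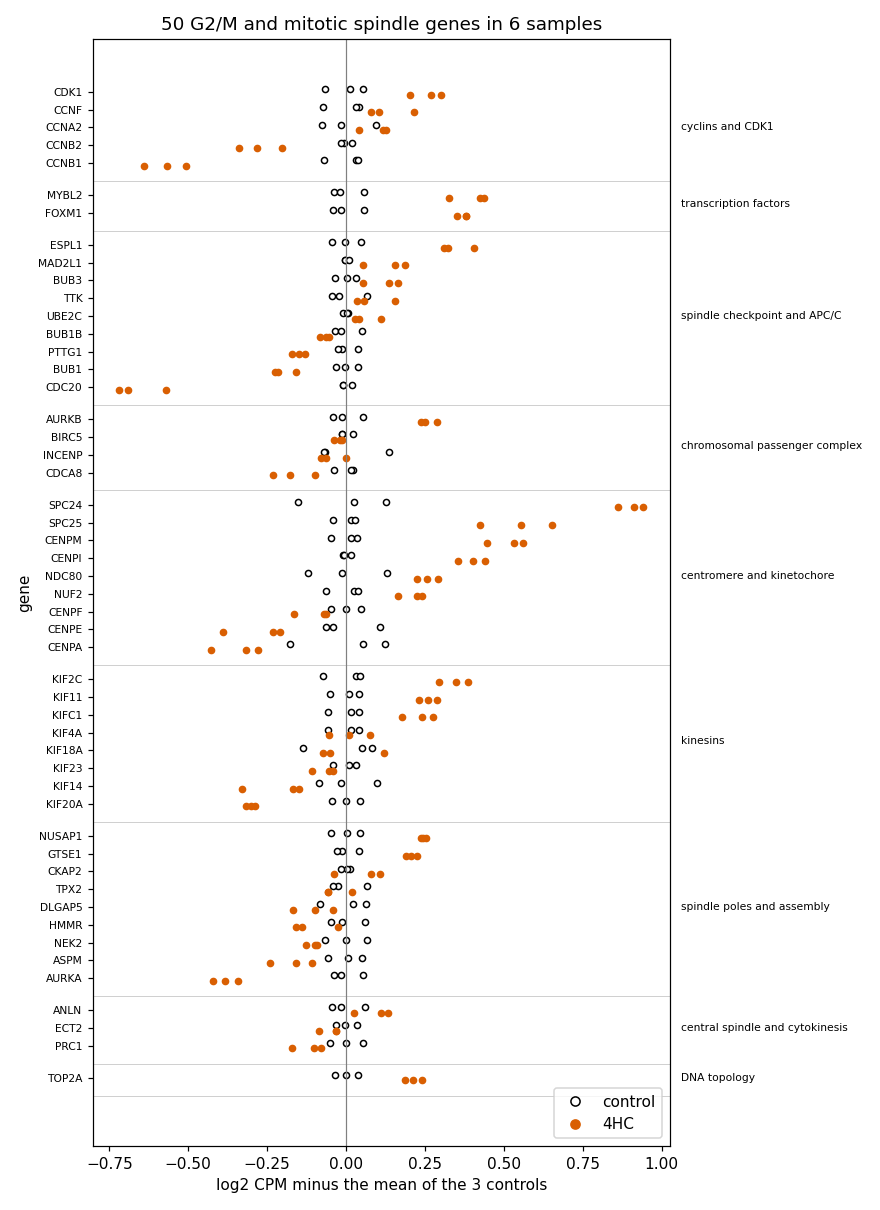
The level of each member in each sample, as log2 CPM minus the mean of the 3 controls, on the horizontal axis, with genes in rows grouped by role, controls as open points and 4HC samples as filled points. The groups lie apart in 37 of the 50 genes, from CDC20 and CCNB1 on the left to SPC24 on the right.

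The cyclins and CDK1 split within 1 complex. CDK1, the kinase that drives entry into mitosis (chromosome 10, 60778331 to 60794852, build GRCh38.p13 of the files), had 608, 560 and 592 CPM in control and 675, 722 and 707 CPM in 4HC. Every 4HC sample lay above every control, and CDK1 rose by a log2 fold change of 0.26 (SE 0.033, edgeR adjusted p = 6.37e-09). CCNB1, the cyclin B that activates CDK1 at mitotic entry (chromosome 5, 69167150 to 69178245), had 180, 168 and 181 CPM in control and 113, 119 and 124 CPM in 4HC. The groups were far apart, and CCNB1 fell by 0.57 on the log2 scale (SE 0.04, adjusted p = 4e-17). The ratio of CCNB1 to CDK1 CPM was 0.296, 0.299 and 0.306 in the controls and 0.168, 0.165 and 0.176 in the 4HC samples. This ratio compares samples, not the levels of both genes, because CPM is not scaled to length. CCNB2, the other mitotic cyclin B, fell from 63.0 ± 0.775 CPM to 52.1 ± 2.5 CPM (log2 fold change -0.27, adjusted p = 1.26e-05). CCNA2, the cyclin of S phase and G2, had 124, 119 and 134 CPM in control and 129, 136 and 137 CPM in 4HC, the groups overlapped, and its log2 fold change of 0.09 (SE 0.041) was not called (adjusted p = 0.0984).

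CCNF, the F-box protein cyclin F, was barely called at a log2 fold change of 0.14 (edgeR adjusted p = 0.049). Without control replicate 1, 2 or 3 its adjusted p was 0.054, 0.0537 or 0.244, and without 4HC replicate 1 it was 0.255. CCNA2 was called at a log2 fold change of 0.135 without control replicate 3 (adjusted p = 0.0229) and at 0.115 without 4HC replicate 1 (adjusted p = 0.0375), so its call depended on single libraries. The calls of CDK1, CCNB1 and CCNB2 held without any 1 of the 6 libraries.

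Both transcription factors of the mitotic wave rose. FOXM1 had 117, 123 and 115 CPM in control and 154, 151 and 154 CPM after 4HC, a log2 fold change of 0.37 (SE 0.039, edgeR adjusted p = 3.83e-11). MYBL2, which binds the MuvB core as B-MYB, had 96.5, 103 and 97.6 CPM in control and 134, 133 and 124 CPM after 4HC, a log2 fold change of 0.40 (SE 0.041, adjusted p = 2.17e-11). In neither gene did the groups overlap. The span of FOXM1 overlaps those of RHNO1 by 910 bases and ITFG2 by 2656 bases, and whether counting used strand is not given in the sources used here, so reads in the overlaps cannot be assigned with certainty. The same holds for CCNA2, CCNB2, BUB1B, AURKB, KIF4A, KIF20A, ASPM and ANLN, whose spans also overlap a neighbouring gene.

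The spindle checkpoint and the anaphase-promoting complex (APC/C) genes had 3 members that rose, 3 that fell and 3 not called, and the median of the 9 log2 fold changes was 0.06. CDC20, which activates the APC/C at the start of anaphase (chromosome 1, 43358981 to 43363203), had 103, 103 and 105 CPM in control and 69.8, 64.2 and 63.0 CPM in 4HC. No 4HC sample came near a control, and CDC20 fell by 0.66 on the log2 scale (SE 0.045, edgeR adjusted p = 1.25e-17), the largest fall of the 50 members. ESPL1, the protease separase that CDC20 sets free by way of securin, rose from 92.8 ± 3.0 CPM to 118 ± 4.11 CPM (log2 fold change 0.34, adjusted p = 2.05e-09). PTTG1, securin itself, fell from 74.3 ± 1.75 CPM to 66.9 ± 0.933 CPM (log2 fold change -0.15, adjusted p = 0.00673). BUB1, a checkpoint kinase at the kinetochore, fell by 0.20 on the log2 scale (adjusted p = 0.000151).

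BUB3 and MAD2L1, which hold the checkpoint signal on unattached kinetochores, rose by log2 fold changes of 0.12 (edgeR adjusted p = 0.0104) and 0.13 (adjusted p = 0.00895). The call of BUB3 was lost without control replicate 2 (adjusted p = 0.0533), 4HC replicate 2 (0.0517) or 4HC replicate 3 (0.0716), and that of MAD2L1 without 4HC replicate 2 (0.094). BUB1B, which blocks CDC20 in the checkpoint, had 149, 151 and 158 CPM in control and 147, 144 and 146 CPM in 4HC, and the groups lay apart although its log2 fold change of -0.07 was not called (adjusted p = 0.147). UBE2C, the APC/C's ubiquitin-conjugating enzyme, had 84.6, 83.8 and 84.5 CPM in control and 86.7, 91.1 and 86.0 CPM in 4HC, also apart and not called (log2 fold change 0.06, adjusted p = 0.286). TTK, the kinase that starts the checkpoint, was not called either, at a log2 fold change of 0.08 (SE 0.053, adjusted p = 0.23).

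The centromere and kinetochore genes were all called, with 6 that rose and 3 that fell and a median log2 fold change of 0.25. SPC24, a subunit of the NDC80 complex that holds the microtubule (chromosome 19, 11145493 to 11155997), had 26.4, 28.3 and 23.3 CPM in control and 47.1, 49.8 and 48.8 CPM in 4HC. The lowest 4HC sample was well above the highest control, and SPC24 rose by a log2 fold change of 0.90 (SE 0.061, edgeR adjusted p = 7.82e-18). Its partner SPC25 had 23.4, 23.6 and 22.5 CPM in control and 31.1, 34.0 and 36.4 CPM after 4HC, a log2 fold change of 0.55 (SE 0.065, adjusted p = 1.02e-09). The other subunits of the complex rose less: NDC80 by a log2 fold change of 0.25 (adjusted p = 0.00021) and NUF2 by 0.21 (adjusted p = 0.00102). All 4 subunits thus rose, by folds of 1.87, 1.46, 1.19 and 1.16.

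CENPM and CENPI, of the constitutive centromere network that sits on the centromere throughout the cycle, rose by log2 fold changes of 0.51 (edgeR adjusted p = 1.94e-11) and 0.40 (adjusted p = 1.79e-09). CENPA, the histone H3 variant that marks the centromere, had 27.3, 32.1 and 33.7 CPM in control and 25.5, 24.8 and 23 CPM in 4HC, and fell by 0.35 on the log2 scale (adjusted p = 5.09e-05). The groups of CENPA lay apart, with control replicate 1 nearest to the 4HC samples. CENPE, a kinesin that moves chromosomes to the spindle equator, fell by 0.28 (adjusted p = 2.7e-05). CENPF, a large protein of the outer kinetochore, fell by 0.10 (adjusted p = 0.0283), and its adjusted p was 0.157, 0.0695 or 0.185 without control replicate 1, control replicate 3 or 4HC replicate 1.

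Of the 4 genes of the chromosomal passenger complex, which corrects wrong attachments, 1 rose, 1 fell and 2 were not called. AURKB, its kinase, rose from 60.7 ± 2.06 CPM to 72.6 ± 1.3 CPM (log2 fold change 0.26, edgeR adjusted p = 1.38e-05). CDCA8, the subunit borealin, fell by 0.17 on the log2 scale (adjusted p = 0.00597), and this call was lost without 4HC replicate 2 (adjusted p = 0.0569). The scaffold INCENP had a log2 fold change of -0.05 (adjusted p = 0.453) and BIRC5, survivin, one of -0.02 (adjusted p = 0.661), and both overlapped between the groups. The 4 subunits of this complex therefore did not move one way.

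The kinesins, motors of the spindle, had 3 members that rose, 2 that fell and 3 not called, with a median log2 fold change of 0.00. KIF2C, which takes microtubules apart at the kinetochore, rose from 112 ± 4.85 CPM to 142 ± 4.72 CPM (log2 fold change 0.34, edgeR adjusted p = 8.99e-10). KIF11, which pushes the spindle poles apart, rose by 0.26 (adjusted p = 2.64e-07) and KIFC1, which draws the poles together, by 0.23 (adjusted p = 3.62e-05). KIF20A, which acts in cytokinesis at the central spindle, had 131, 123 and 127 CPM in control and 104, 103 and 102 CPM in 4HC, and fell by 0.30 on the log2 scale (SE 0.04, adjusted p = 1.71e-08). KIF14, also of cytokinesis, fell by 0.22 (adjusted p = 0.00243). KIF4A, KIF18A and KIF23, of chromosome arms, chromosome alignment and the central spindle, had folds of 1.01, 0.999 and 0.954 and overlapped between the groups.

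Of the 9 genes of spindle poles and spindle assembly, 2 rose, 2 fell and 5 were not called, and their median log2 fold change was -0.10. AURKA, the kinase of the spindle pole (chromosome 20, 56369390 to 56392308), had 101, 99.6 and 106 CPM in control and 80.6, 78.3 and 76.3 CPM in 4HC, apart in every sample, and fell by 0.38 on the log2 scale (SE 0.043, edgeR adjusted p = 2.86e-10). TPX2, which activates AURKA on the spindle, had a log2 fold change of -0.03 (adjusted p = 0.525). ASPM, a protein of the spindle pole, fell by 0.17 (adjusted p = 0.00113), while NUSAP1, which bundles spindle microtubules, rose by 0.24 (adjusted p = 2.5e-07) and GTSE1, a regulator of p53 and of spindle microtubules, by 0.21 (adjusted p = 0.000234).

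HMMR and DLGAP5, both spindle assembly factors, had log2 fold changes of -0.11 (edgeR adjusted p = 0.0591) and -0.10 (adjusted p = 0.0585), and neither was called. HMMR was called without 4HC replicate 2 (log2 fold change -0.149, adjusted p = 0.022), and DLGAP5 without control replicate 2 (-0.146, adjusted p = 0.0116) or 4HC replicate 2 (-0.135, adjusted p = 0.0373). NEK2, a kinase that separates centrosomes, had 28.8, 26.3 and 27.5 CPM in control and 25.7, 25.2 and 25.8 CPM in 4HC, apart but not called (adjusted p = 0.189). CKAP2, a spindle-associated protein, had a log2 fold change of 0.05 (adjusted p = 0.287).

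At the central spindle, PRC1, which bundles microtubules there, fell by 0.12 on the log2 scale (edgeR adjusted p = 0.00839), and its adjusted p was 0.0875 without control replicate 3 and 0.0631 without 4HC replicate 1. ANLN, the scaffold anillin of the contractile ring, was called at a log2 fold change of 0.09 (adjusted p = 0.0362) although its groups overlapped. Without control replicate 2 or 3, or 4HC replicate 2 or 3, its adjusted p was 0.158, 0.122, 0.202 or 0.103. ECT2, which activates RhoA at the cleavage furrow, had a log2 fold change of -0.05 and was not called (adjusted p = 0.332). TOP2A, topoisomerase IIα, which untangles sister chromatids (chromosome 17, 40388525 to 40417915), had 509, 484 and 496 CPM in control and 565, 586 and 575 CPM in 4HC, apart in every sample, and rose by a log2 fold change of 0.21 (SE 0.031, adjusted p = 2.32e-07).

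Early and late mitotic genes were then set against each other. The early genes were CCNA2, CDK1 and TOP2A. The late genes were 18 members assigned by hand, since timing in the cycle was not measured here: CCNB1, CCNB2, BUB1, CDC20, UBE2C, PTTG1, BIRC5, CENPA, CENPE, CENPF, KIF14, KIF20A, AURKA, NEK2, TPX2, HMMR, DLGAP5 and ASPM. They were assigned with earlier results of these data known, so the split below may follow in part from the choice. Of the 3 early genes, 2 rose and 1 was not called, with a median log2 fold change of 0.21 and a range of 0.09 to 0.26. Of the 18 late genes none rose, 12 fell and 6 were not called, with a median of -0.18 and a range of -0.66 to 0.06, and 17 of the 18 had a negative log2 fold change. The remaining 29 members had 19 that rose, 2 that fell (CDCA8 and PRC1) and 8 not called, with a median of 0.21. For comparison, 19.2% of all tested genes rose and 17.1% fell. With a mean of at least 20 CPM these shares were 20.8% and 23.2%. Apart from the late genes, 21 of 32 members thus rose, so the rise was not limited to the early genes. The split rests on this choice of late genes: products of ESPL1, AURKB, KIF2C, KIF11, SPC24 and NDC80, which rose, and of ECT2 and KIF23, which were not called, also act in mitosis and were not among the 18. Of all 47 members other than the early genes, 19 rose and 14 fell.

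**Figure D2:**
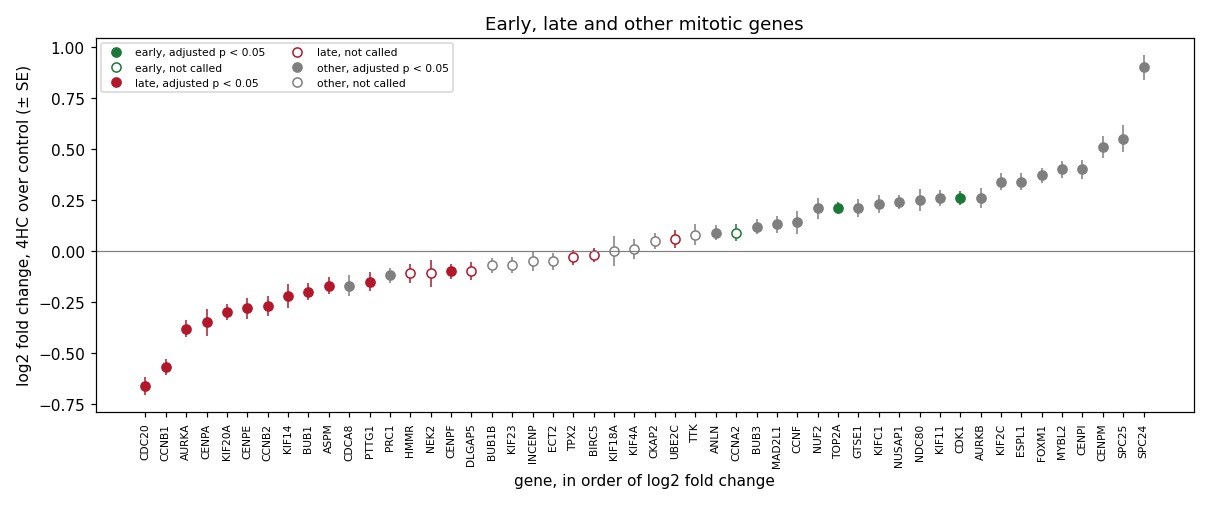
The log2 fold change of each member (4HC over control, vertical axis, with its SE) in order of size, coloured by early, late or other, with filled points at an adjusted p under 0.05. Late genes fill the low end from CDC20 (-0.66) upward, and other members fill the high end up to SPC24 (0.90), above all 3 early genes.

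Within each sample, the mean log2 CPM of the early genes minus that of the late genes was 1.88, 1.84 and 1.89 in control and 2.25, 2.28 and 2.29 in 4HC. The difference was larger in every 4HC sample than in every control, and the median log2 fold change of the early genes exceeded that of the late genes by 0.394. Relative to the control mean, the late genes stood at -0.24, -0.20 and -0.22 in the 4HC samples, and the early genes at 0.14, 0.22 and 0.20. The remaining members stood at 0.17, 0.21 and 0.20, level with the early genes. With all 47 members other than the early genes as the comparison, the same difference was 2.01, 1.94 and 2.02 in control and 2.12, 2.15 and 2.16 in 4HC, and the gap between the medians was 0.214. These differences are given as a description with no test, since the genes share their libraries, and an exact permutation test of 3 against 3 samples cannot give a p below 0.1.

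**Figure D3:**
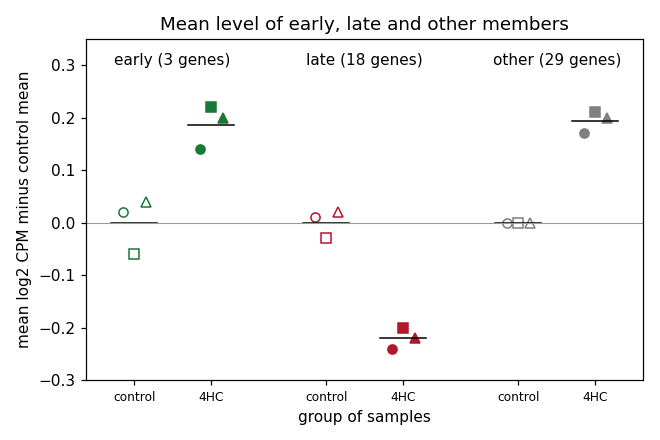
The mean log2 CPM of the 3 early, 18 late and 29 other members in each sample, minus the control mean (vertical axis), for control (open) and 4HC (filled), with a line at the mean of each group and a marker shape for each replicate number. The 4HC samples lie at 0.14 to 0.22 for the early genes, -0.24 to -0.20 for the late genes and 0.17 to 0.21 for the others.

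Scaled to length, the members differed widely in level. In control, CDK1 was highest at 574 ± 27.4 TPM (transcripts per 1000000), followed by UBE2C at 272 ± 3.02 TPM and PTTG1 at 263 ± 8.55 TPM, genes that differ by about the SD of PTTG1, and then BUB3 at 174 ± 3.21 TPM and CCNB1 at 159 ± 7.91 TPM. The lowest was KIF14 at 10.4 ± 0.766 TPM, beside KIF18A at 11.1 ± 0.954 TPM. In 4HC, CCNB1 stood at 106 TPM and CDC20 at 75.0 TPM, down from 119 ± 2.12 TPM. Among the 5 highest, CDK1 and BUB3 rose, PTTG1 and CCNB1 fell, and UBE2C was not called.

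The promoters bear the elements of the mitotic wave. Windows of 300 bases, from 250 before to 50 after the transcription start, were taken from RefSeq (GRCh38.p14) and found for 42 of the 50 members. The members with no entry were CENPM, TTK, TPX2, FOXM1, AURKA, BIRC5, UBE2C and BUB3. The letters searched on both strands were TTTGAA or TTCGAA for the CHR, CCAAT for the CCAAT box, and TTTCCCGC, TTTGGCGC, TTTCGCGC or TTTGCCGC for an E2F site. Stretches of 7 genes are shown because they span the largest fall, the split of CDK1 from the cyclins B, the largest rises (SPC24 and SPC25) and, with TOP2A, a second early gene, from 160 bases before to 30 after the start, with matches in capitals.
CDC20: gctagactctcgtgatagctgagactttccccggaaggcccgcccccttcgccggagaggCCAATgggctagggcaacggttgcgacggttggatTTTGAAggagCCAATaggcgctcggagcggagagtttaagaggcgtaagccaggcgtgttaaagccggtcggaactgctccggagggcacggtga
CCNB2: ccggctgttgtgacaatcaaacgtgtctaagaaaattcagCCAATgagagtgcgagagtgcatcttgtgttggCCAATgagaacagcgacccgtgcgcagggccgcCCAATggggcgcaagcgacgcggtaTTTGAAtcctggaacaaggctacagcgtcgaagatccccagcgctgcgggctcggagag
CCNB1: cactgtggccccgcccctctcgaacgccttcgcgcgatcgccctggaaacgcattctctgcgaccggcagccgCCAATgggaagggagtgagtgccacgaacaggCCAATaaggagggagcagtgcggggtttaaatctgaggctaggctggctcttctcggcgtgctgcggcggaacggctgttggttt
CDK1: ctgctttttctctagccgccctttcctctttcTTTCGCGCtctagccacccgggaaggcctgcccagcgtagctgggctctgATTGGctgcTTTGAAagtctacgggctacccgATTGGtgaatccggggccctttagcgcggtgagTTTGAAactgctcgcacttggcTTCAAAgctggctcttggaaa
TOP2A: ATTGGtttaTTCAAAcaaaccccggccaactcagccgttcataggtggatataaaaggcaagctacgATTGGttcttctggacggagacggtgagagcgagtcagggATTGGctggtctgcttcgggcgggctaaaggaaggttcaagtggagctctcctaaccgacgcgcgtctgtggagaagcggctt
SPC25: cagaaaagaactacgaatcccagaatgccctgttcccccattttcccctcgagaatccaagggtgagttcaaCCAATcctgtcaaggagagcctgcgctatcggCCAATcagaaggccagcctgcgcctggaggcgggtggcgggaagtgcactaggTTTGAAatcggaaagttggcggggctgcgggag
SPC24: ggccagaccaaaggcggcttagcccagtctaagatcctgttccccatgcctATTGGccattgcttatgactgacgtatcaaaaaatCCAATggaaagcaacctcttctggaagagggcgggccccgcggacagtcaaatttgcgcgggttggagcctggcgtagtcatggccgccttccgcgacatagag
They lie on GRCh38.p14 at chr1:43358821-43359010 for CDC20, chr15:59104986-59105175 for CCNB2, chr5:69166990-69167179 for CCNB1 and chr10:60778318-60778507 for CDK1, all on the plus strand, and at chr17:40417867-40418056 for TOP2A, chr2:168890401-168890590 for SPC25 and chr19:11155753-11155942 for SPC24, on the minus strand. Within the stretch shown, CDC20 had CHR letters starting at -65 and CCAAT letters at -100 and -55 from the start, and CCNB2 had CHR letters at -29 and CCAAT letters at -120, -87 and -54. CDK1, shown from the downstream of its starts, had CHR letters at -69, -13 and 10 and an E2F match at -128. SPC25 had CHR letters at -3 and TOP2A at -151. CCNB1 and SPC24, which moved in opposite directions, held CCAAT letters and neither TTTGAA nor TTCGAA in the window. Other spellings of the CHR were not searched, so these promoters may still hold one.

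CHR letters were present in 30 of the 42 members with a window (71.4%, exact 95% confidence interval 55.4 to 84.3%), beside 15.6% of the 10042 tested genes with a window. Within 100 bases of the start they were present in 66.7% of the members and 6.84% of the genes. CCAAT letters were in 33 members (78.6%, beside 43.7%), both CHR and CCAAT letters in 26 (61.9%, beside 8.5%), and E2F letters in 3 (7.14%, beside 6.87%), namely CDK1, CENPA and NUSAP1. Members with CHR letters and members without them both rose and fell: with CHR letters 13 rose and 9 fell (median log2 fold change -0.03), and without them 5 rose and 4 fell (median 0.07). Of 14 late genes with a window 9 held CHR letters, and of 25 other members 19 did. With CCAAT letters 12 rose and 12 fell (median -0.05), and without them 6 rose and 1 fell (median 0.21). A match is a description of letters, not of a factor bound there. A CHR spelled otherwise than the letters searched would be counted as absent. The members are a fixed list, not a random draw, so the confidence interval does not extend to other genes.

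The transcript table gave fewer calls. It held 256 transcripts of members, of which 207 were tested, and 7 rose and 3 fell, beside 0.706% and 0.587% of the 42216 transcripts tested. Among them were the main transcripts of CDC20 (100% of the gene's counts, from 1693 to 1075 mean counts, log2 fold change -0.66, edgeR adjusted p = 0.00671) and CCNB1 (98.2% of counts, from 2824 to 1914, -0.56, adjusted p = 0.0127). The major transcript of SPC24, with 65.7% of counts, rose by 0.99 (adjusted p = 0.0186), that of CENPM by 0.54 (adjusted p = 0.0397) and that of TOP2A by 0.22 (adjusted p = 0.0318). Leaving out any 1 of the 6 libraries left 0 or 1 that rose and 0 to 3 that fell.

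In HMMR, the major transcript, with 64.9% of counts, had 918, 1001 and 966.1 counts in control and 789.7, 866.5 and 769.9 in 4HC. The second, with 32.5%, had 449.4, 395.3 and 395.5 counts in control and 460.1, 498.8 and 461.5 in 4HC. The first was lower and the second higher in every 4HC sample, but neither was called (log2 fold change -0.25, edgeR adjusted p = 0.17, and 0.20, adjusted p = 0.5). The 2 main transcripts of DLGAP5 had log2 fold changes of -0.23 (adjusted p = 0.245) and 0.28 (adjusted p = 0.53). A minor transcript of PRC1, chosen after its values were seen, held 1.17% of the gene's counts. It had 0 counts in each control and 50.8 to 118 counts in 4HC (edgeR adjusted p = 0.0498). The 4HC mean was 25.5-fold a floor of 3 counts per library, which covers counting error only. Reads of PRC1 were divided among overlapping transcripts, which neither the floor nor the test takes into account, so this fold is not a lower bound. Other PRC1 transcripts moved in both directions, and the call was lost with a replicate block. KIFC1's reads were split in equal parts between copies of 1 transcript (33.2% each), so its transcripts are uncertain.

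The rest of the mitotic machinery was read from lists of genes outside the 50. Over 6 lists with 97 genes, 55 rose, 11 fell and 31 were not called, with a median log2 fold change of 0.16, beside 0.03 for the members. Among all tested genes 19.2% rose and 17.1% fell. Of 31 other centromere and kinetochore genes 24 rose and 2 fell (median 0.26), led by CENPP (0.79, edgeR adjusted p = 5.39e-14), CENPW (0.63, adjusted p = 5.71e-09) and DSN1 (0.55, adjusted p = 1.69e-13), a subunit of the MIS12 complex. The 2 that fell were SGO2, shugoshin 2 (-0.24), and SKA2 (-0.19). Of 8 condensin genes, which compact chromosomes, 6 rose and none fell (median 0.23), with NCAPH2 (0.47), NCAPG (0.35) and NCAPG2 (0.35) the largest.

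Of 26 other spindle and cytokinesis genes 15 rose and 5 fell (median 0.14), with HAUS5 of the augmin complex (0.47), the kinesin KIF20B (0.45) and citron kinase CIT (0.44) the largest. Of 17 genes of the APC/C and its regulators 3 rose and 4 fell (median -0.03), not far from the 19.2% and 17.1% of all tested genes. The ubiquitin-conjugating enzyme UBE2S fell most (-0.36, edgeR adjusted p = 1.35e-09), followed by the subunits ANAPC1 (-0.28) and CDC27 (-0.22). Of 10 mitotic entry kinases and CDK partners 5 rose and none fell (median 0.07), with the CDK1-inhibiting kinase PKMYT1 (0.68, adjusted p = 5.79e-13), PBK (0.43) and MASTL, which holds off the phosphatase that opposes CDK1 (0.37), the largest. Of 5 genes of the MuvB core 2 rose and none fell, LIN37 (0.46) and LIN54 (0.25).

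Beside these, 30 of 42 S phase genes rose and 3 fell (median log2 fold change 0.32), among them PCNA (1.04), RRM2 (0.84) and RAD51AP1 (0.67). All 20 p53 target genes rose (median 0.83). CDKN1A, which encodes the CDK inhibitor p21, had 220, 233 and 221 CPM in control and 800, 786 and 764 CPM after 4HC, a log2 fold change of 1.80 (SE 0.033, edgeR adjusted p = 2.56e-42). The 21 members that rose, the 14 that fell and the S phase and p53 lists come from the same 6 samples, and whether one moved with another was not tested.

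**Figure D4:**
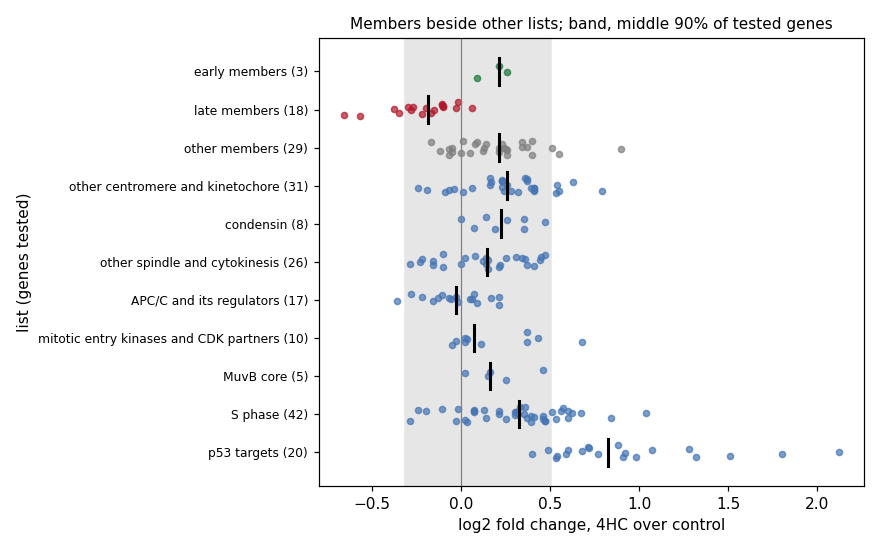
The log2 fold change (4HC over control, horizontal axis) of each gene of the early, late and other members and of 8 other lists, with the median as a black bar and, in grey, the middle 90% of all tested genes (-0.31 to 0.50). The late members have the lowest median (-0.18), and the p53 targets lie to the right of 0 without exception.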

How the data were processed

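RNA-seq of 3 control and 3 4HC samples of COV434 cells was analysed, as labelled. Reads had been filtered with SOAPnuke, and the submitters' processing notes list HISAT2, Bowtie2, RSEM 1.3.1, DESeq2 1.4.5 and GRCh38.p13. The authors deposited expected counts per gene and transcript without normalization (85.5% of those of genes were whole numbers) and TPM values scaled to length and library. Their own fold changes, p-values and q-values, in log2 fold and ratio columns, were not used, nor was a second, identical gene table.

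Rounded expected counts entered edgeR 4.0.16 under R 4.3.3 (TMM, filterByExpr, quasi-likelihood test, condition only, Benjamini-Hochberg over all 12368 genes; biological coefficient of variation 0.0277). CPM values were computed from these counts with TMM library sizes. On simulated counts for the comparison of 4HC with control (12296 genes), the test found 88% of log2 changes of 0.5 and 100% of those of 1.5, with 5.56% of its 198 calls false. Changes as small as those of most called members (median log2 fold change 0.26 and -0.24) were not simulated, so the share found at that size is not known. Alternatives were DESeq2 1.42.0, its size factors, library size only, other filters, a replicate block, limma 3.58.1 on log2(TPM + 1) and log2(TPM + 0.1), and leaving out each sample. The rule of the study and the background at 20 CPM were added after seeing the data. Shared replicate numbers were not taken as pairs, because same-numbered samples had low correlations (0.00866, 0.0694 and 0.0302), though these do not exclude pairing. Any member could be named, and in detail CCNA2, CDK1, TOP2A, up to 3 called per role and every uncalled member, up to 3 called genes of each other list, and CDKN1A and MKI67. Members and lists were chosen with earlier results of these data known. PRC1's minor transcript and SGO2 and SKA2 were named after their values were seen. Intervals and floors cover counting error only.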

Additional observations from a re-analysis of the deposited data

How the results depend on the processing

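Of the 35 called members, 28 kept call and direction under all 14 alternative settings, 7 lost the call under some (CCNF, BUB3, MAD2L1, CDCA8, CENPF, PRC1 and ANLN) and 0 reversed; CCNA2, HMMR and DLGAP5 were called under some. The scalings shifted the median of all genes by at most 0.021 on the log2 scale. Among uncalled members, KIF18A turned positive under library size only (0.019), and leaving out 1 library turned the sign of INCENP (-0.086 to 0.020), KIF4A (-0.022 to 0.042), KIF18A (-0.067 to 0.037) and TPX2 (-0.058 to 0.003). The gap between early and late medians was 0.214 with all 47 other members as late. Transcripts of members called higher numbered 0 to 1 and those called lower 0 to 3 with 1 library left out, and 5 were called lower with a minimum of 10 counts in every sample. Same-numbered samples had correlations of 0.00866, 0.0694 and 0.0302, so the numbers were not taken as pairs; with a replicate block 19 members rose and 13 fell, 2259 and 1954 of all genes did, and 0 transcripts of members were called in either direction. The members had at least 328 counts in each sample.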
